A study of Mus musculus with 15 samples.

Results

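The genes described here are cytosolic chaperones of the HSP70, HSP110 and HSP90 families, the HSP70 cochaperone Bag3 and the heat shock transcription factor Hsf1, measured in mouse gastrocnemius. A probe set was taken where the platform annotation gives it exactly 1 gene symbol from a list of 10: Hspa1a, Hspa1b, Hspa8, Hspa4, Hspa4l, Hsph1, Hsp90aa1, Hsp90ab1, Bag3 and Hsf1. This gave 11 probe sets for 7 of the 10 genes, out of 19938 genes with a named probe set in all. Hspa8 and Hsp90aa1 had 3 probe sets each, and Hspa1a, Hspa4, Hspa4l, Hsph1 and Bag3 had 1 each. Hspa1b shares its only listed probe set with Hspa1a, so it has no value of its own. Hsp90ab1 and Hsf1 were not analysed here. All 7 genes with a value passed the filter on dim probe sets, a mean of at least 5.32 on the log2 scale.

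The muscles came from male C57BL/6 mice aged 12 months, 1 mouse per array. The groups crossed genotype with diet: 3 wildtype mice on the control diet, 4 wildtype mice on calorie restriction (CR), 4 Sirt3 knockout mice on the control diet and 4 Sirt3 knockout mice on CR. Sirt3 encodes a deacetylase of the mitochondrial matrix. The sources used here do not give the degree or length of the restriction, or how the knockout was made. Values are log2 intensities, and since whole muscle was used, fewer cells of a type and less RNA per cell cannot be told apart.

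Chaperones of the HSP70 family bind unfolded stretches of protein in cycles of ATP binding and hydrolysis, helped by J domain cochaperones that load substrate and by exchange factors that release the nucleotide. HSP90 takes over late folding intermediates, many of them kinases and hormone receptors. The transcription factor HSF1 is held inactive by these same chaperones and, when misfolded protein draws them away, binds heat shock elements and raises their genes. In skeletal muscle, contraction unfolds sarcomere proteins, and BAG3 links HSP70 to small heat shock proteins in the turnover of damaged Z-disc components.

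Heat shock elements are arrays of the 5-base unit nGAAn in alternating orientation, and the sequences below show where inward and outward pairs of that unit lie at the starts of the members. RefSeq promoter windows (build GRCm38.p6, 250 bases before to 50 after a start) were held for 6 of the 10 genes: Hspa1a, Hspa1b, Hspa4, Hspa4l, Hsph1 with 2 starts, and Bag3. The pairs searched were GAANNTTC and TTCNNGAA, which read the same on both strands and can overlap each other, and, on both strands, the triple made of TTCNNGAA, 2 further bases and TTC. At least 1 pair was found for 4 of the 6 genes, and 15.1% of the 32851 windows in the table hold one (GAANNTTC in 7.86% and TTCNNGAA in 8.52%). The windows of Hspa4 and Hspa4l held no pair. Capitals mark the pairs and the triple. The first 2 lines are the 250 bases before the start of Hspa1a, on the minus strand at chr17:34972157-34972406, and of Hsph1, on the minus strand at chr5:149636337-149636586. The last 2 are 30-base stretches that end 50 bases after the start of Hsph1, on the minus strand at chr5:149636287-149636316, and of Bag3, on the plus strand at chr7:128523603-128523632.
Hspa1a before the start: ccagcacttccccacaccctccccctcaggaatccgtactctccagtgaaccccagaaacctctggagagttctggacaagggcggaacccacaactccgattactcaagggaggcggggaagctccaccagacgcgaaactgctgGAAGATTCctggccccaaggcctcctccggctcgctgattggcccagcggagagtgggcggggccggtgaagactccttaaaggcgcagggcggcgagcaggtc
Hsph1 before the start: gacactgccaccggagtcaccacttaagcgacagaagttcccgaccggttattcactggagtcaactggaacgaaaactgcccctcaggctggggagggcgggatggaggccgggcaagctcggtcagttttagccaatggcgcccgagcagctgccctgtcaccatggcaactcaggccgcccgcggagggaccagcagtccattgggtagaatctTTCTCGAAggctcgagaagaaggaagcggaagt
Hsph1 after the start: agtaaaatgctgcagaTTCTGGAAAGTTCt
Bag3 after the start: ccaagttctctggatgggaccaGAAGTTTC

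In Hspa1a the pair began at position -104 from the start. Hspa1b differs from Hspa1a at 3 of these 250 bases and carries the same pair at the same place. Hsph1 held 1 pair at -33 and a full triple at 36 after the first of its listed starts, and the triple is present in 0.603% of all windows. In Bag3 the pair began 42 bases after the start. A match is a description of the letters, not evidence that HSF1 binds there.

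Transcripts of other tissues set 4 arrays apart. Taken relative to the median over arrays, the mean log2 value of 20 male germ cell markers was 4.13 on wildtype control replicate 3, 3.53 on knockout control replicate 1 and -0.46 to 0.68 on the other 13. Of 9 pancreatic acinar markers, 8 had a probe set, and their mean on this scale was 7.16 on wildtype control replicate 2. It was 0.55 and 0.73 on wildtype control replicates 1 and 3, and -0.19 to 0.10 on the arrays of the other groups. Of the 6 tested, 5 were lower on CR in wildtype mice without overlap, where 2.95% of all genes were. Of 15 liver markers, 14 had a probe set. Their mean was 2.61 on wildtype CR replicate 4, 1.53 on knockout control replicate 2 and 1.49 on wildtype control replicate 1. All 10 fast muscle markers were bright on every array, with list means of 12.56 to 12.77. These means did not overlap between the diets, at 12.56 to 12.61 on control and 12.69 to 12.77 on CR arrays in wildtype and 12.61 to 12.69 and 12.71 to 12.76 in knockout mice. Of the 10 markers, 9 in wildtype and 7 in knockout mice were higher on CR without overlap. In knockout mice 1 was lower without overlap, where 3.08% of all genes were. The share of all genes higher without overlap was not counted. Markers of other resident cells also differed between the diets in wildtype mice: the mean of 10 fibroblast and tendon markers was 0.24 to 0.40 on control and -0.25 to 0.06 on CR arrays, and that of 10 macrophage markers 0.07 to 0.46 and -0.28 to 0.04. In knockout mice the latter 2 lists overlapped between the diets. Sirt3 itself was at 6.38 to 6.68 on wildtype and 4.94 to 6.19 on knockout arrays. Diet and genotype results are given with all 15 arrays. For the diet changes of the 7 genes and the medians over them, fits with the 2 germ cell arrays or all 4 left out are added. The 4 are both germ cell arrays, the pancreatic array and wildtype CR replicate 4. With all 4 left out, wildtype control replicate 1 is the only wildtype control array and is assumed to vary like the others. Its own pancreatic and liver marker means were 0.55 and 1.49, so that fit is not free of such transcripts. The part of these transcripts in the results was not tested beyond those fits.

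Each gene is counted here by its probe set with the highest mean. On calorie restriction every one of the 7 genes had a lower mean than on the control diet in both genotypes. Of all genes, 37.7% in wildtype and 47.0% in knockout mice had a change below 0. Another probe set of Hspa8 was higher on CR in wildtype mice, by 0.25 (SE 0.25). The median log2 change over the 7 was -0.63 in wildtype and -0.70 in knockout mice, beside medians of 0.04 and 0.01 over the 12056 genes tested. In knockout mice 6 of the 7 genes had all 4 CR arrays below all 4 control arrays, where 3.08% of all genes did so. In wildtype mice 3 of the 7 did, Hspa8, Hspa4 and Bag3, where 2.95% of all genes did. The genes were chosen with these 2 diet responses known, so the responses are given as a description, with moderated standard errors (SE) from limma and no test. By count, 0 of the 7 lay past an adjusted p of 0.05 in limma in either genotype, beside 0.124% of all genes in wildtype and 0.0664% in knockout mice (0.0166% and 0.0581% in the lower direction). At an unadjusted limma p under 0.05 there were 5 of the 7 in wildtype and 6 in knockout mice, where 13.1% and 12.0% of all genes were. Without the 2 germ cell arrays the medians were -0.17 in wildtype and -0.69 in knockout mice, and without the 4 arrays they were -0.12 and -0.69.

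**Figure D1:**
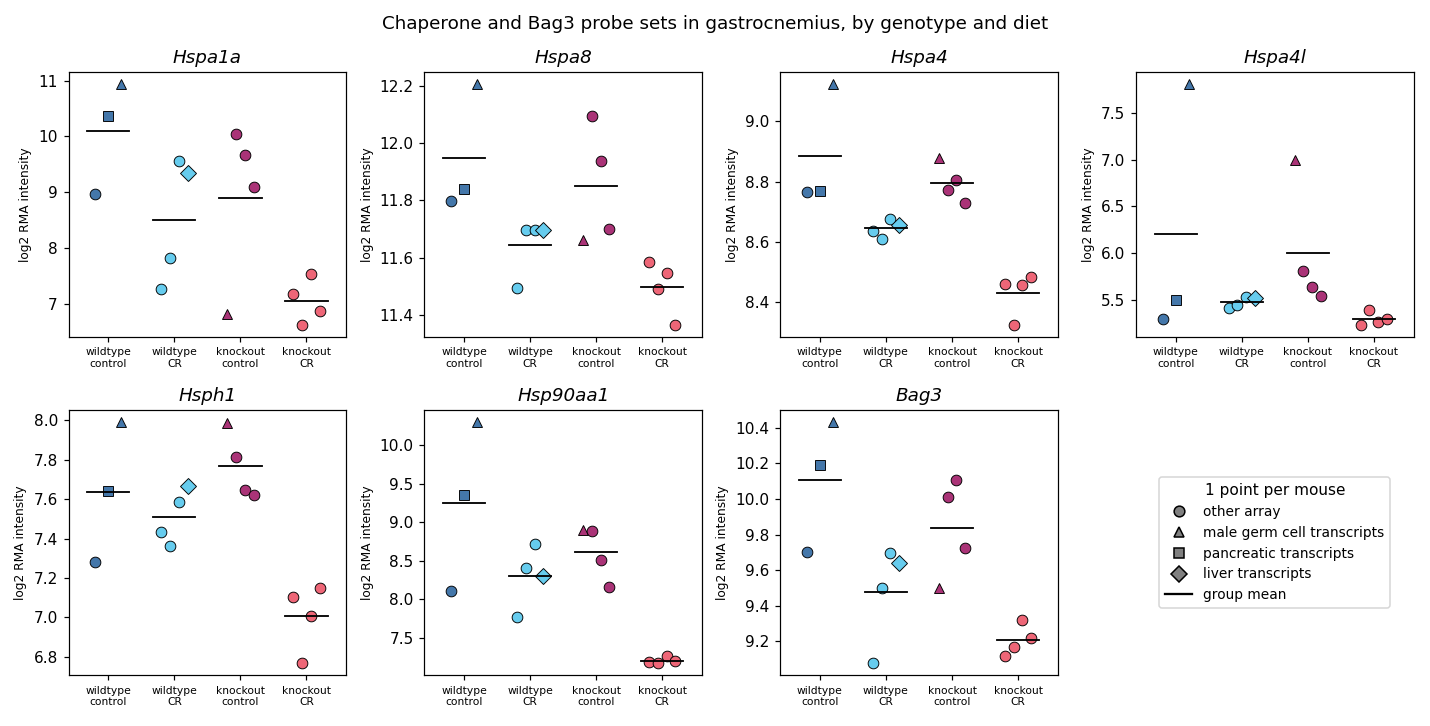
Log2 RMA intensity of the probe set used for each of 7 genes, by genotype and diet, with 1 point per mouse and a line at the group mean. Triangles, squares and diamonds mark the 4 arrays with germ cell, pancreatic or liver transcripts. Knockout CR arrays sit lowest or near lowest for every gene, with Hsp90aa1 between 7.17 and 7.27.

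Hspa1a, which encodes the stress-inducible HSP70, had a range of 4.32 log2 units from the lowest array to the highest, the widest of the 7. Its value was 8.97, 10.37 and 10.94 on the wildtype control arrays and 7.25, 7.82, 9.56 and 9.34 on the wildtype CR arrays. In knockout mice it was 6.82, 10.04, 9.66 and 9.09 on the control diet and 7.17, 6.62, 7.53 and 6.87 on CR. The diets overlapped in both genotypes. In knockout mice the overlap came from 1 array, knockout control replicate 1, which lay at 6.82, among the CR values and far below the other 3 control arrays. The CR change was -1.60 (SE 0.72) in wildtype mice, a ratio of 0.329. In knockout mice it was -1.86 (SE 0.67), a ratio of 0.276. Without the 2 germ cell arrays the changes were -1.18 (SE 0.58) and -2.55 (SE 0.51). Without the 4 arrays they were -0.76 (SE 0.68) and -2.55 (SE 0.45).

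The probe set shared by Hspa1a and Hspa1b followed the Hspa1a one, with Pearson r = 0.974 over the 15 arrays as a description. It read 10.03, 11.25 and 11.85 on wildtype control and 8.54, 9.37, 10.57 and 10.40 on wildtype CR arrays. On knockout arrays it read 9.02, 10.97, 10.49 and 10.11 on the control diet and 8.05, 8.07, 8.62 and 7.93 on CR. Here the knockout diets did not overlap, since knockout control replicate 1, at 9.02, lay above the highest CR array. The 2 genes are near-identical copies on chromosome 17, and this probe set cannot be told apart into one or the other.

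Hspa8, the constitutive HSP70 of the cytosol, varied less, over a range of 0.84 log2 units. On the probe set with the highest mean it was 11.80, 11.84 and 12.21 on wildtype control and 11.49, 11.70, 11.70 and 11.70 on wildtype CR arrays. Knockout arrays read 11.66, 12.09, 11.94 and 11.70 on the control diet and 11.59, 11.49, 11.55 and 11.37 on CR. All CR arrays lay below all control arrays of the same genotype. The CR change was -0.30 (SE 0.12) in wildtype and -0.35 (SE 0.11) in knockout mice. Leaving out the germ cell arrays gave -0.17 (SE 0.10) and -0.41 (SE 0.09).

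The 3 probe sets of Hspa8 disagreed. A second one ran parallel to the first, with r = 0.997 over 15 arrays and CR changes of -0.31 and -0.37. The third read 10.51, 11.77 and 10.90 on wildtype control and 11.43, 11.27, 11.27 and 11.25 on wildtype CR arrays. On knockout arrays it read 11.67, 11.94, 11.86 and 11.73 on the control diet and 11.03, 11.03, 11.02 and 10.13 on CR. Its r with the first was 0.408. The third probe set gave a CR change of 0.25 (SE 0.25) in wildtype mice, the opposite sign, and of -0.999 (SE 0.23) in knockout mice, so the direction in wildtype mice depends on the probe set. On the control diet, knockout minus wildtype was -0.10 on each of the first 2 and 0.74 (SE 0.25) on the third. The 3 probe sets of Hsp90aa1 ran parallel, with r of 0.994 to 0.999 between them.

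**Figure D2:**
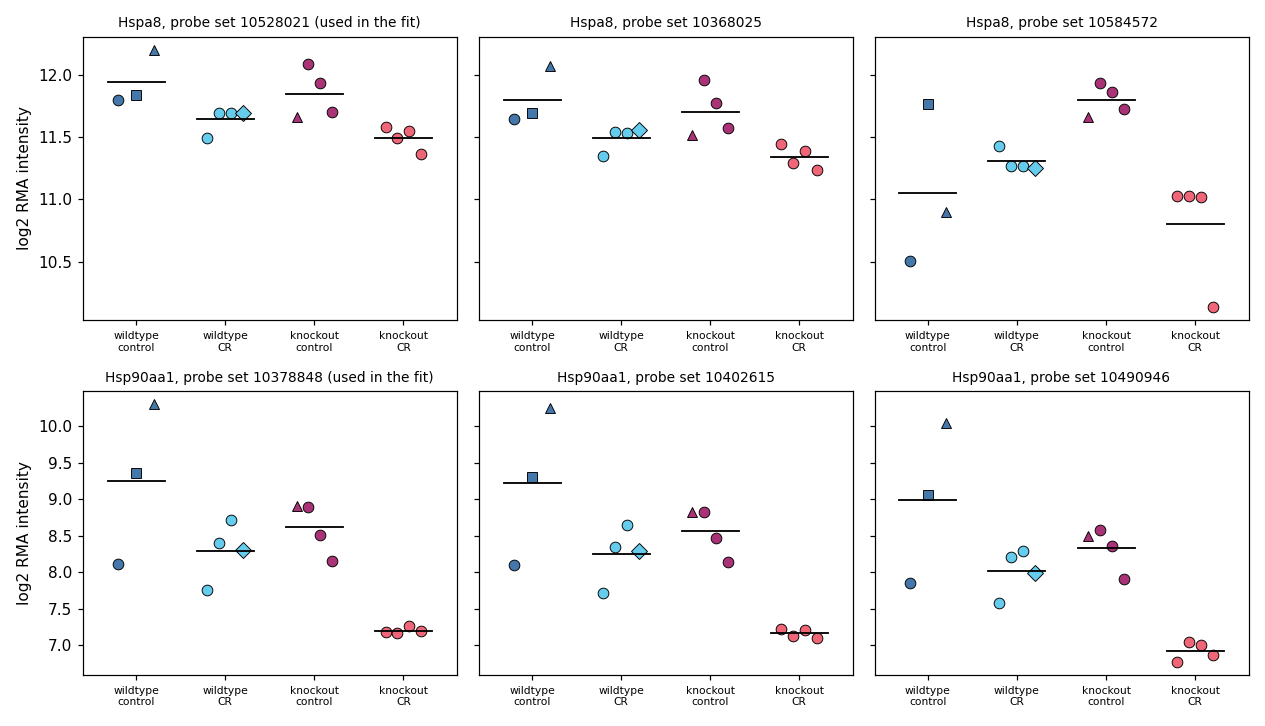
Log2 RMA intensity of each of the 3 probe sets of Hspa8 (top) and Hsp90aa1 (bottom), by genotype and diet, with 1 point per mouse, lines at group means and marks for the 4 arrays as in the plot of all members. The Hspa8 probe set on the right has 2 wildtype control arrays at 10.51 and 10.90, below its wildtype CR arrays, while the 3 Hsp90aa1 probe sets repeat 1 pattern.

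Hspa4, Hspa4l and Hsph1 encode the HSP110 chaperones, large relatives of HSP70 that act as its nucleotide exchange factors. Hspa4 had narrow groups. It was 8.76, 8.77 and 9.12 on wildtype control and 8.64, 8.61, 8.68 and 8.66 on wildtype CR arrays. On knockout arrays it was 8.88, 8.77, 8.81 and 8.73 on the control diet and 8.46, 8.33, 8.46 and 8.48 on CR. The diets did not overlap in either genotype, and the knockout CR arrays lay below every other array. The CR change was -0.24 (SE 0.08) in wildtype and -0.36 (SE 0.08) in knockout mice. With the germ cell arrays left out it was -0.12 (SE 0.06) and -0.34 (SE 0.06).

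Hsph1, the stress-inducible HSP110, overlapped between the diets in wildtype but not in knockout mice. It was 7.28, 7.64 and 7.99 on wildtype control and 7.43, 7.36, 7.59 and 7.66 on wildtype CR arrays. In knockout mice it was 7.99, 7.81, 7.64 and 7.62 on the control diet and 7.10, 6.77, 7.01 and 7.15 on CR, with the 4 CR arrays below every other array. The CR change was -0.13 (SE 0.15) in wildtype mice and -0.76 (SE 0.14) in knockout mice, a ratio of 0.591. The 13 arrays without germ cell transcripts gave 0.05 (SE 0.13) in wildtype and -0.69 (SE 0.11) in knockout mice, so the sign in wildtype mice rested on wildtype control replicate 3.

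Hspa4l, an HSP110 that is abundant in male germ cells, followed the germ cell transcripts. It was 7.81 on wildtype control replicate 3 and 6.998 on knockout control replicate 1, and 5.23 to 5.81 on the other 13 arrays, 4 of which lay under the filter value of 5.32. The remaining wildtype control arrays were at 5.29 and 5.49, and the wildtype CR arrays at 5.41, 5.44, 5.53 and 5.52. The other knockout control arrays were at 5.81, 5.64 and 5.54, and the knockout CR arrays at 5.23, 5.39, 5.27 and 5.30. The CR change of -0.72 (SE 0.47) in wildtype mice became 0.08 (SE 0.09) without the 2 germ cell arrays. That in knockout mice went from -0.70 (SE 0.44) to -0.37 (SE 0.08). These low signals are near the limit of the filter, and ratios there need not be ratios of transcript.

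Hsp90aa1, the stress-inducible cytosolic HSP90, had the tightest knockout CR group. It was 8.11, 9.36 and 10.30 on wildtype control and 7.77, 8.41, 8.72 and 8.30 on wildtype CR arrays, which overlapped. On knockout arrays it was 8.90, 8.89, 8.52 and 8.16 on the control diet and 7.18, 7.17, 7.27 and 7.19 on CR. The knockout CR arrays lay below every other array, the nearest being wildtype CR replicate 1 at 7.77. The CR change was -0.96 (SE 0.37) in wildtype mice, a ratio of 0.515. In knockout mice it was -1.42 (SE 0.34), a ratio of 0.375. Hsp90aa1 is also abundant in male germ cells. Of its 3 wildtype control arrays the germ cell array was highest and the pancreatic array next, as for the other genes with a value. On the other germ cell array, knockout control replicate 1, Hsp90aa1 was 8.90, beside 8.89 on replicate 2 of that group. The part of germ cell RNA in its values was not tested. Without the 2 germ cell arrays the changes were -0.43 (SE 0.30) and -1.32 (SE 0.27). Without the 4 arrays the wildtype change was 0.19 (SE 0.31), so the sign in wildtype mice was not kept, and the knockout change was -1.32 (SE 0.20).

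Bag3, which joins HSP70 to small heat shock proteins, was 9.70, 10.19 and 10.43 on wildtype control and 9.08, 9.50, 9.70 and 9.64 on wildtype CR arrays. Knockout arrays were at 9.50, 10.01, 10.11 and 9.73 on the control diet and 9.12, 9.17, 9.32 and 9.22 on CR. The diets did not overlap in either genotype, although in wildtype mice the nearest arrays were both at 9.70. The CR change was -0.63 (SE 0.18) in wildtype and -0.63 (SE 0.17) in knockout mice, a ratio of 0.647 and 0.646. Without the 2 germ cell arrays it was -0.47 (SE 0.17) and -0.74 (SE 0.15), and without the 4 arrays -0.28 (SE 0.20) and -0.74 (SE 0.14). Of the 7 genes, Hspa1a, Hspa8 (on the probe set used), Hspa4 and Bag3 kept a negative sign in wildtype mice in all 3 of these fits. All 7 kept it in knockout mice.

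**Figure D3:**
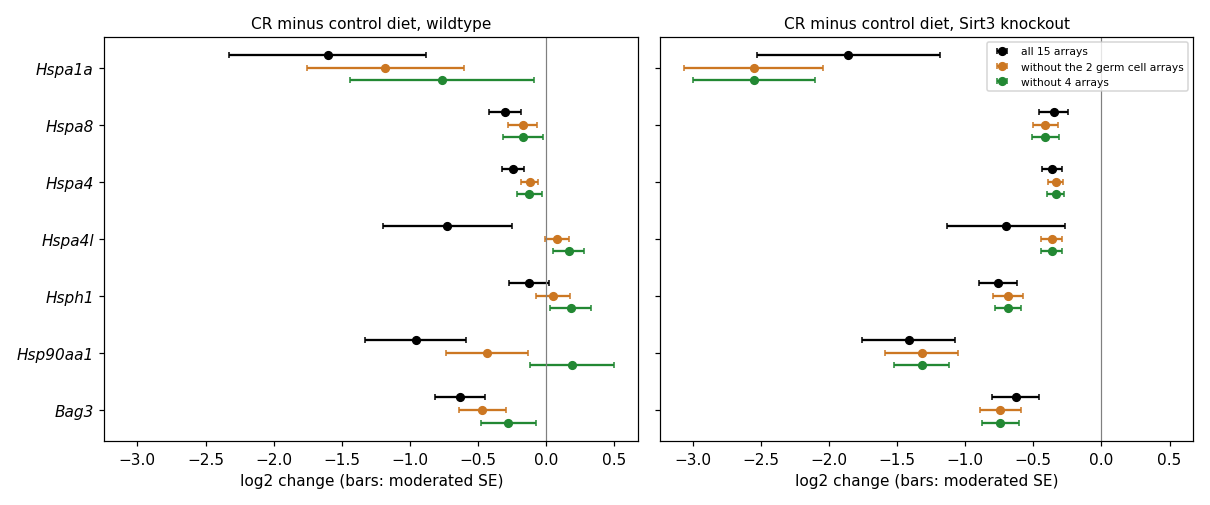
Log2 change on calorie restriction (CR minus control diet) for 7 genes in wildtype (left) and Sirt3 knockout mice (right), with all 15 arrays, without the 2 germ cell arrays and without 4 arrays. Bars are moderated standard errors. The knockout changes stay below 0 in all 3 fits, and in wildtype mice Hspa4l, Hsph1 and Hsp90aa1 cross 0, at 0.17, 0.18 and 0.19 without the 4 arrays.

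The difference between the diet responses, knockout minus wildtype, is built from the same contrasts and is likewise a description. It was -0.63 (SE 0.20) for Hsph1, -0.46 (SE 0.51) for Hsp90aa1, -0.26 (SE 0.99) for Hspa1a, -0.12 (SE 0.11) for Hspa4 and -0.05 (SE 0.16) for Hspa8 on the probe set used. The third probe set of Hspa8 gave -1.25 (SE 0.34). It was within 0.01 of 0 for Bag3 (SE 0.25) and 0.02 (SE 0.64) for Hspa4l. By sign, 6 of the 7 were below 0, as were 56.9% of all genes. None of the 7 passed an adjusted p of 0.05 in limma, as 0% of all genes did, and 1 of them, Hsph1, had an unadjusted p under 0.05, where 5.71% of all genes did. The median over the 7 was -0.12, and it was -0.45 with the germ cell arrays left out and -0.53 with all 4 left out. Leaving out wildtype control replicate 1 gave 0.11 as the median and leaving out wildtype control replicate 3 gave -0.68, so the size of this difference rested on single wildtype control arrays.

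Averaging the diet response over the genotypes, a contrast added after the values were seen, put 3 of the 7 past an adjusted p of 0.05 in limma, beside 1.07% of all genes (0.423% in the lower direction). All 7 were below 0, as were 40.5% of all genes. These were Hspa4 at -0.30 (SE 0.06), Bag3 at -0.63 (SE 0.13) and Hsp90aa1 at -1.19 (SE 0.25). The count shares all arrays with the diet responses that chose the genes and is read as a description. With the 2 germ cell arrays left out, Hspa4 and Bag3 passed in limma. The median over the 7 went from -0.63 to -0.32 in that fit and to -0.29 without the 4 arrays. Of the 15 fits that left out 1 array, the one without wildtype control replicate 1 gave 5, while the calls over all genes went from 129 to 260. The count was 3 without knockout control replicate 4, with the same genes. It was also 3 without replicate 1 of that group, where Hspa1a passed and Hsp90aa1 did not. It was 1 without wildtype control replicate 2 or 3, replicate 2 of the knockout control group or knockout CR replicate 1. It was 0 without knockout control replicate 3, any wildtype CR array or knockout CR replicate 2, 3 or 4. Calls over all genes fell as well, to 27 to 92 in the fits with 1 and 23 to 48 in those with 0. They were 91 without knockout control replicate 4 and 62 without knockout control replicate 1.

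Knockout against wildtype, averaged over the diets, was tested, since it is a different comparison from the diet responses known when the genes were chosen. It shares all arrays with those responses, and the genes were chosen with earlier results of these data known. Its counts and p-values are therefore not those of an independent test. Of the 7 genes 0 passed an adjusted p of 0.05 in limma, as did 0% of all 12056. Sirt3 itself, at -0.96 (SE 0.18, limma adjusted p = 0.318), did not pass either. A count of 0 is therefore not evidence that the genotypes are alike. At an unadjusted limma p under 0.05 there were 4 of the 7, Hspa1a, Hspa4, Hsp90aa1 and Bag3, where 7.18% of all genes were. All 7 point estimates were below 0, as were 46.8% of those over all genes. Hsp90aa1 stood at -0.87 (SE 0.25, limma adjusted p = 0.536), with genotype means of 7.91 in knockout and 8.78 in wildtype mice averaged over diets. Hspa1a stood at -1.32 (SE 0.49, limma adjusted p = 0.645). Hspa4, at -0.15 (SE 0.06), had the same limma adjusted p of 0.645, and Bag3, at -0.27 (SE 0.13), had one of 0.690. Hspa4l, Hsph1 and Hspa8 lay at -0.19, -0.19 and -0.12. Exact permutation of the 7 wildtype and 8 knockout arrays without regard to diet gave two-sided p of 0.0833 for Hsp90aa1, 0.110 for Hspa1a and 0.204 to 0.662 for the other 5, over 6435 splits. The diet changes add to the spread in this permutation, and its difference for Hsp90aa1 was -0.80. By limma adjusted p and by permutation, a difference between the genotypes was not shown at this number of arrays. With the germ cell arrays left out Hsp90aa1 stood at -0.65 and Hspa1a at -0.76, and with all 4 left out at -0.34 and -0.27. The median over the 7 went from -0.19 to -0.14 and -0.02 in these fits. Without wildtype control replicate 1, Hsp90aa1 passed in limma, at -1.15 (adjusted p = 0.0395), and over all alternatives its adjusted p ranged from 0.0395 to 0.969.

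Within one diet, the genotype differences reuse the arrays of the diet responses and are given as values only. On CR, all 7 genes had lower means in knockout mice, where 53.3% of all genes did, with a median of -0.27. By limma 0 of the 7 lay past an adjusted p of 0.05, beside 0.0166% of all genes. Of the 7, 4 (Hspa4, Hspa4l, Hsph1 and Hsp90aa1) had all knockout arrays below all wildtype arrays, where 2.76% of all genes did. Hsp90aa1 stood at -1.10 (SE 0.34), Hsph1 at -0.51 (SE 0.14), Hspa4 at -0.21 (SE 0.08) and Hspa4l at -0.18 (SE 0.44). Hspa1a, at -1.45 (SE 0.67), and Bag3, at -0.27 (SE 0.17), overlapped. With the germ cell arrays left out the median was -0.27, and with all 4 left out it was -0.22. On the control diet the genotypes overlapped for all 7 genes, where 1.29% of all genes had knockout arrays below all wildtype arrays, and the median was -0.20. It was 0.00 without the 2 arrays and 0.37 without the 4, where wildtype control replicate 1 alone stands for its group.

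**Figure D4:**
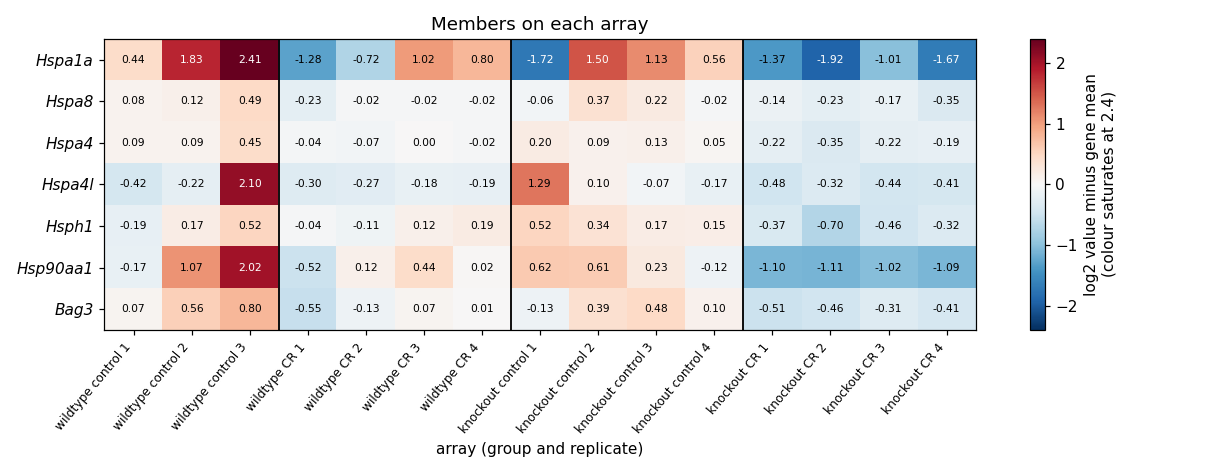
Log2 value minus the gene's mean over the 15 arrays, for 7 genes (rows) on each array (columns, grouped by genotype and diet). The numbers are these differences. Wildtype control replicate 3 is the highest array for all 7 genes, Hspa4l is highest on the 2 germ cell arrays, and Hspa1a is low on knockout control replicate 1.

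The genes also varied together between mice of one group. After each group's mean was taken off, 20 of the 21 pairs of genes had an r above 0 over the 15 arrays, with a median of 0.637 and a highest value of 0.887 for Hspa1a with Bag3. These correlations are a description, and genes on one array share its labelling and normalization. Pairs of other genes are not given, so there is no background to set this count against. Hspa4 with Hspa4l had an r of 0.872, which was -0.08 without the 2 germ cell arrays. Hspa1a with Bag3 stood at 0.869 and Hsp90aa1 with Bag3 at 0.873 without them. Hspa1a with Hsph1 went from 0.271 to 0.722 without the 2, where knockout control replicate 1 had combined the lowest control value of Hspa1a (6.82) with a high Hsph1 (7.99). The mean of the 7 genes, each centred over all arrays, was 1.25 on wildtype control replicate 3, 0.52 on replicate 2 and -0.01 on replicate 1. It was -0.42, -0.17, 0.21 and 0.11 on the wildtype CR arrays. It ranged from 0.08 to 0.49 on knockout control and from -0.73 to -0.52 on knockout CR arrays. Wildtype control replicate 3 was highest for all 7, while the lowest array was a knockout CR array for 6 and wildtype CR replicate 1 for Bag3.

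The genes whose pattern over the 15 arrays was closest to the mean of the 7 were, by Pearson r, Dnaja1 (0.973), Tnpo1 (0.936), Dnajb4 (0.931), Rcan1 (0.918) and Dnajb1 (0.917). Dnaja1, Dnajb4 and Dnajb1 encode J domain cochaperones of HSP70, Tnpo1 a nuclear import receptor and Rcan1 a calcineurin inhibitor. Closest to Bag3 alone were Dnajb4 (0.926), Hbegf (0.906), Dnaja1 (0.904), Asb5 (0.902) and Cxcl10 (0.896). Spearman's rho for these 10 pairings was 0.850 to 0.943. They were picked as the closest of all genes tested and carry no test.

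Other parts of the chaperone network, listed by role, are given by their counts and medians. The lists were chosen with earlier results of these data known, so counts and adjusted p are read as a description. Over all genes, 47.0% in knockout and 37.7% in wildtype mice were below 0 on CR. An adjusted p of 0.05 in limma was passed by 0.0664% and 0.124%. Of 8 J domain cochaperones tested, all 8 were lower on CR in knockout mice, with a median of -0.57, and 1 passed the threshold there, Dnaja4, which fell by 0.98 (SE 0.14, limma adjusted p = 0.0174) and was picked out after its value was seen. Dnajb1, which loads substrate onto HSP70, stood at -1.25 (SE 0.46) and -1.07 (SE 0.43) in the wildtype and knockout mice, with adjusted p of 0.271 and 0.341 by limma. Dnajb4, a muscle-rich relative, stood at -0.84 (SE 0.19) and -0.86 (SE 0.17), with adjusted p of 0.117 and 0.0968 by limma. Of 7 small heat shock proteins and other BAG3 partners, 6 were lower in knockout mice, the median was -0.44, and 2 passed. Flnc, the filamin cleared with the help of BAG3, fell by 1.44 (SE 0.19) and the small heat shock gene Hspb1 fell by 1.47 (SE 0.18), with adjusted p of 0.0142 and 0.0131 by limma. In wildtype mice Flnc stood at -0.26 (SE 0.21) and Hspb1 at -0.28 (SE 0.20), and none of the 7 passed.

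In the remaining lists 0 genes passed the threshold in either genotype. The 15 HSP90 cochaperones had medians of -0.03 in wildtype and -0.14 in knockout mice, the 9 other HSP70 cochaperones -0.07 and 0.00, and the 9 other HSP70 family genes -0.20 and -0.16. Among the last, Hspa2, a germ cell HSP70, had its group maxima of 8.85 and 8.18 in the wildtype and knockout control groups and lay at most at 6.49 on CR. Its CR change was -0.93 (SE 0.56, limma adjusted p = 0.474) in wildtype mice. The ER and mitochondrial HSP90 genes had medians of -0.10 and -0.15, and 3 other heat shock factors and their binding proteins -0.09 and -0.06. In the tested contrast, knockout against wildtype, 0 genes of these 7 lists passed an adjusted p of 0.05 in limma. No list was compared with another.

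**Figure D5:**
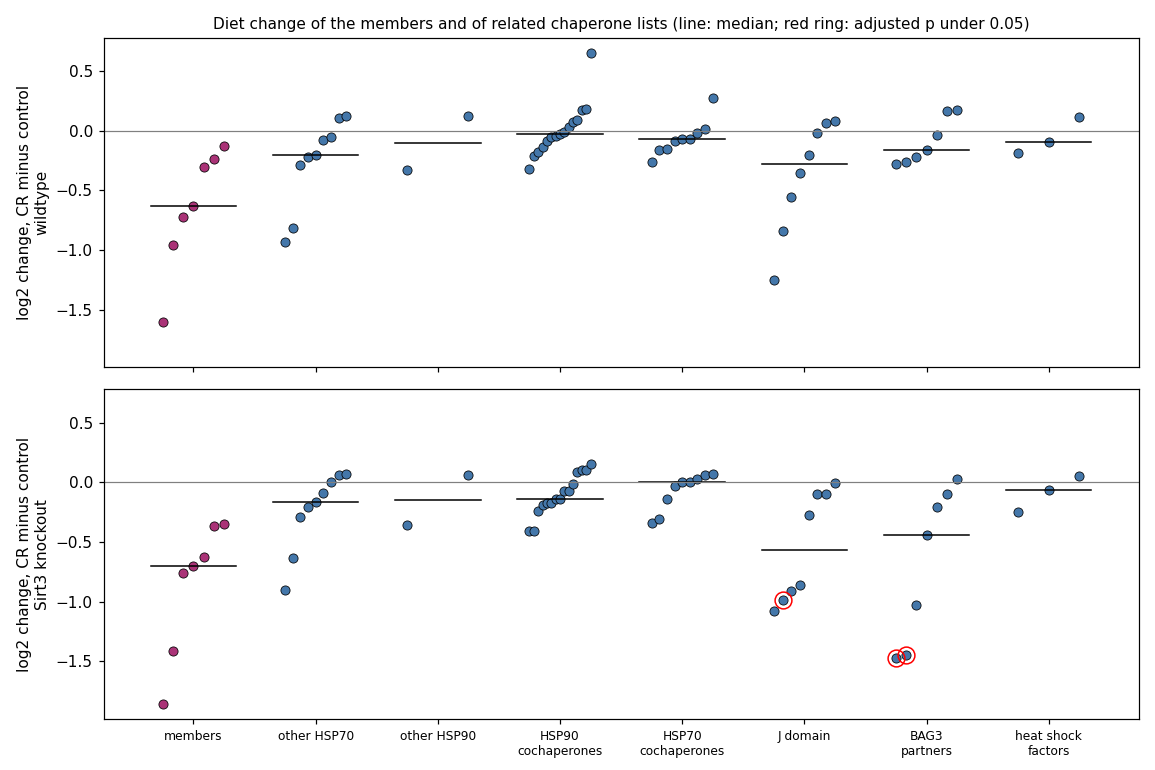
Log2 change on calorie restriction (CR minus control diet) for each tested gene of 8 lists, in wildtype (top) and Sirt3 knockout mice (bottom), with all 15 arrays. Lines are list medians, and red rings mark the 3 genes past an adjusted p of 0.05 in limma (Hspb1, Flnc and Dnaja4), all in knockout mice. The members have medians of -0.63 and -0.70.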

How the data were processed

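Biotin-labelled RNA of 15 gastrocnemius muscles was hybridised to Affymetrix arrays, per the labels. Per the submitters' processing notes, the authors used RMA, which corrects background, quantile-normalizes and summarises probes, and they deposited its log2 intensities. Its version and any batch are not given here. The number of arrays limits the precision. Of 35556 probe sets, 21789 had 1 symbol in the platform annotation, 1621 had several and 12146 were not listed. Each gene took its probe set with the highest mean. Genes with a mean under the 40th percentile of listed probe sets were removed, leaving 12056. Array medians were 5.40 to 5.48.

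All arrays were fitted in limma 3.58.1 (R 4.3.3) with 1 mean per group, Benjamini-Hochberg adjustment over all genes and a threshold of 0.05. The fit was tested on simulated data. The members and lists were chosen with earlier results of these data known. All members are named, and the network genes named are the 3 with the largest absolute CR change in each genotype, plus Dnaja4. Same-numbered arrays did not deviate together as a rule (r of -0.64 to 0.50, above 0.1 in 7 of 21 pairs), so numbers were not taken as pairs. Alternatives concerned the filter, probe sets, normalization, prior, weights, block and arrays left out. Promoter sequences are RefSeq's. Figures used Python 3.11.15 with matplotlib 3.10.9.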

Additional observations from a re-analysis of the deposited data

Results flagged for a closer look

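Among 21 combinations of a gene and a group of 4 arrays, 1 held an array far from the rest: Hspa8 on wildtype CR replicate 1, at 11.49, lay below the other 3 arrays of its group, all at 11.70. Chance gives about 1 such case in 20 groups. The same array was the lowest of all 15 for Bag3.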

How the results depend on the processing

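With the replicate number as a block, the members past the threshold were 0 in wildtype and 1 (Bag3) in knockout mice. Calls over all genes went from 8 to 15 in knockout mice. The members past were 0 for the difference and the genotype comparisons. For the averaged diet response 1 passed against 3, while calls over all genes were 36 against 129. No other call changed. For CR in knockout mice the count of 0 became 1 (Hsph1) with the 60th percentile filter or arrays centred on their median. Calls over all genes there were 12 of 7816 and 11 of 12056, beside 8 in the main fit. The count was 2 with array weights (Hsph1 and Hspa4) or only the groups compared (Hsph1 and Hsp90aa1), where calls over all genes were 24 and 17. Without the 4 arrays the median was -0.69. Leaving out 1 array gave counts of 0 to 2, and the median ranged from -0.81 to -0.68. The count was 2 without wildtype control replicate 1 or 3, where calls over all genes were 15 and 12. For CR in wildtype mice the median was -0.24 with array weights, -0.17 with the 2 germ cell arrays left out and -0.12 without the 4. Leaving out 1 array gave -0.83 to -0.17 and counts of 0 to 1 (Hsp90aa1 without wildtype control replicate 1). In that fit calls over all genes went from 15 to 24. The median difference of the responses was -0.53 without the 4 arrays and -0.68 to 0.11 without 1 array, with 0 past in each. For knockout against wildtype the count was 0 to 1 without 1 array and the median -0.37 to -0.10. The count of 1 came without wildtype control replicate 1, where calls over all genes went from 0 to 7. Hspa4l turned to 0.0019 with array weights, 0.044 without the 2 and 0.10 without the 4, and ranged from -0.42 to 0.21 without 1 array (0.21 without wildtype control replicate 3). Bag3 turned to 0.014 without the 4. On the control diet the genotype median was 0.37 without the 4. The averaged diet response had 0 past without a filter, 5 with the 60th percentile and 6 with array weights. Calls over all genes there were 32 of 19938, 189 of 7816 and 186 of 12056, beside 129 in the main fit. The count was 0 to 5 without 1 array, and the median was -0.29 without the 4 arrays. The causes were not tested. Signal near the filter value limits Hspa4l.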
